A study of Mus musculus with 4 samples.

Results

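The 8 genes described here encode regulators of G protein signalling (RGS proteins) expressed in mouse induced regulatory T cells: Rgs1, Rgs2, Rgs3, Rgs10, Rgs11, Rgs14, Rgs16 and Rgs19. They were picked by symbol, each had a single row in both deposited tables, and all 8 were among the 10603 genes tested, out of 22144 symbols compared. The libraries were labelled MSC KO 1, MSC KO 2, WT 1 and WT 2, where MSC is musculin, a transcription factor of the basic helix-loop-helix class and the product of Msc. All 4 came from C57BL/6 naive T cells that were sorted and kept for 3 days with TGF-beta (2 ng/ml) over antibodies against CD3 and CD28 (1 µg/ml) fixed to the plate, conditions that the MSC KO and WT cells shared. Nothing in the labels tells which part of Msc was deleted, in which cells, or whether replicates came from separate animals. The p-values therefore cover no more than the spread among these 4 libraries, and that spread may be technical.

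A receptor coupled to a G protein makes the alpha subunit exchange GDP for GTP, which frees it from the beta-gamma pair. RGS proteins speed the hydrolysis of that GTP by the alpha subunit and so end the signal. In lymphocytes the best known signals of this kind come from chemokine receptors, which act through Gi proteins and steer migration, and Rgs1 and Rgs16 are known as brakes on them.

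Of the 8 genes, Rgs2, Rgs11 and Rgs16 stood higher in each MSC KO-labelled library than in either WT library, by 1.64 to 3.23 times within a table. Such a lack of overlap on the higher side was seen in 26.6% of all genes tested. Rgs10 and Rgs19 had both MSC KO-labelled values below both WT values, as had 32.5% of all genes. Rgs1, by far the most abundant, Rgs3, Rgs14 and Rgs19 lay within 0.3 of WT on the log2(FPKM + 1) scale in both tables. Rgs10 was lower in MSC KO 2 and near WT in MSC KO 1. None of the 8 passed an adjusted p of 0.05 in the limma fit blocked by table, a threshold that 1 of all genes tested (0.00943%) passed. An unadjusted p under 0.05 was reached by 3 members, all on the higher side, against 20.4% of all genes (9.2% on the higher side and 11.2% on the lower).

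Msc itself, at 0.331 and 0.939 FPKM (a fragment count divided by transcript length and library size) in the libraries labelled MSC KO, against 0.0243 and 0.0178 FPKM in WT, went against the labels. Directions below are therefore those of the libraries as labelled. The Msc values amount to an estimated 16.1 and 53.6 fragments under the MSC KO label, against 1.08 and 1.09 in WT. With a mean under 1 FPKM, Msc was not tested. Foxp3, the transcription factor that defines regulatory T cells, was at 2.97 and 7.05 FPKM under the MSC KO label, against 62.8 and 66 FPKM in WT. The 6 listed CD4 T cell markers found summed to 1202 and 1133 FPKM under the MSC KO label, against 1126 and 1157 FPKM in WT. Myeloid markers summed to 0.753 and 1.27 FPKM against 1.18 and 0.371 FPKM, and B cell markers to 6.17 and 5.07 FPKM against 7.38 and 7.12 FPKM, with Pax5 listed at 0 in MSC KO 2 and both WT libraries. Of the 6 mast cell markers, 5 were listed at 0 in every library, all but Kit. Of 6 listed markers of CD8, gamma delta and NK cells, 4 were found, and the gamma delta genes Trdc and Tcrg-C1 were not among them. The 4 summed to 9.18 and 19.8 FPKM under the MSC KO label, against 11.3 and 11.7 FPKM in WT. Most of this was Cd8b1 (8.56 and 19.1 FPKM, against 9.75 FPKM in each WT library). Cd8a was lower in both tables (0.571 and 0.658 FPKM against 1.58 and 1.9 FPKM). Of 6 listed erythroid markers, 2 were found, and their sum stayed at or under 0.056 FPKM. Of the 6 induced Treg markers, 2 (Ctla4 and Tnfrsf18) were higher and 3 (Foxp3, Itgae and Lrrc32) lower in both tables. The part of cell makeup in the results was not tested, and fewer cells of a type cannot be told apart from less RNA per cell. Estimated depth, in units of 1e6 fragments, was 27.9 and 32.8 under the MSC KO label, against 25.5 and 35 in WT.

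The 2 WT libraries lay closer to each other than did the 2 MSC KO-labelled ones. Over 5992 genes the median absolute log2 difference was 0.152 between MSC KO 1 and MSC KO 2 and 0.0541 between WT 1 and WT 2. The WT libraries still differed beyond counting noise, by a median squared deviation 2.9 times that of counting alone in single-transcript genes, against 22.5 times for the MSC KO-labelled pair, and all were kept as separate samples.

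**Figure D1:**
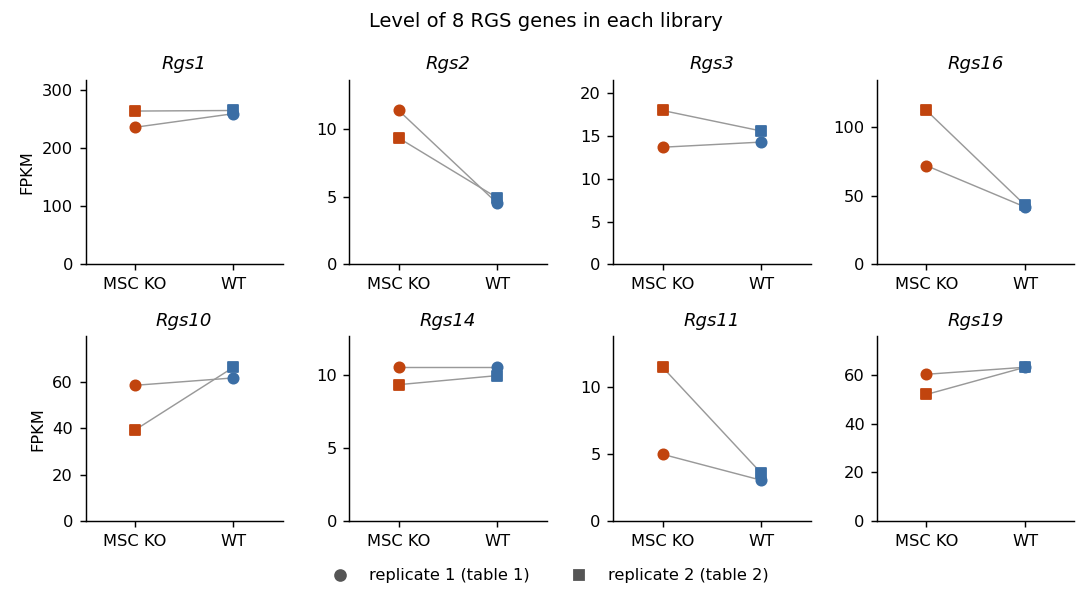
Level in FPKM (vertical axes, each from 0) of the 8 RGS genes in the MSC KO-labelled (orange, left) and WT (blue, right) libraries. Circles are replicate 1 and squares replicate 2, and lines join libraries of 1 table. Rgs2, Rgs11 and Rgs16 lie above WT in both pairs, and the WT points of each gene lie close together.

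The highest of the family was Rgs1, which restrains the response of lymphocytes to chemokines. It stood at 236 and 264 FPKM under the MSC KO label, against 259.5 and 265 FPKM in WT. The groups overlapped, and the difference was -0.07 ± 0.09 on the log2(FPKM + 1) scale (SE, 2 libraries a group; 95% interval -0.34 to 0.21; adjusted p = 0.708, limma). Its level exceeded that of 96% of the tested genes in MSC KO 1 and of 96.5% in WT 1. Rgs1 is on chromosome 1 (mm9, 146091798 to 146096234).

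Rgs16, a small RGS protein known for its induction in activated T cells, was at 71.8 and 112 FPKM under the MSC KO label, against 41.7 and 43 FPKM in WT. Both MSC KO-labelled libraries were above both WT libraries, at 1.72 times WT in the first table and 2.61 times in the second. The gene has 1 annotated transcript, and its levels amount to an estimated 4690 and 8604 fragments under the MSC KO label, against 2487 and 3526 in WT. The difference was 1.07 ± 0.18 on the log2(FPKM + 1) scale (95% interval 0.51 to 1.62; adjusted p = 0.152, limma). In the authors' deposited table of the second pair Rgs16 was called significant (q = 0.0243), as were 0.549% of the rows tested there. In the authors' deposited table of the first pair it was not called (q = 0.841), where 0.634% of rows were. Rgs16 is on chromosome 1 (mm9, 155587482 to 155592598).

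Rgs2, which among its relatives prefers the Gq alpha subunit as substrate, was at 11.4 and 9.36 FPKM under the MSC KO label, against 4.51 and 4.92 FPKM in WT. Again the groups did not overlap, with ratios of 2.54 and 1.9 in the first and second tables. The larger ratio was in MSC KO 1, the reverse of the order for Rgs16. Rgs2 differed by 0.99 ± 0.14 on the log2(FPKM + 1) scale (95% interval 0.58 to 1.4; adjusted p = 0.139, limma). In the authors' deposited tables it was not called, with q = 0.436 (p = 0.0198) in the first and q = 0.999 (p = 0.0654) in the second. An unadjusted p under 0.05 was given to 6.36% and 5.62% of the rows tested in the authors' deposited tables. Rgs2 is on chromosome 1 (mm9, 145846467 to 145851279).

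Rgs3, whose long forms carry further domains beside the RGS domain, was at 13.7 and 18 FPKM under the MSC KO label, against 14.3 and 15.6 FPKM in WT. The MSC KO-labelled values enclosed those of WT, with a difference of 0.07 ± 0.11 (log2(FPKM + 1); 95% interval -0.26 to 0.4; adjusted p = 0.746, limma) and opposite signs in the 2 tables. The deposited rows are per gene and do not tell long and short forms apart. Rgs1, Rgs2, Rgs3 and Rgs16 belong to 1 subfamily, most of whose members are little more than an RGS domain.

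The promoters of Rgs2 and Rgs16, which were higher in both tables, and of Rgs10, which was not, are shown for comparison. They run from 250 bases before to 50 bases after the transcription start, 5′ to 3′ on the strand of the gene, from RefSeq on GRCm38.p6, and 5 of the 8 members had an entry. Capitals mark TGACG or its reverse complement, the half-site of the cAMP response element.
Rgs2 (chr1:144004100-144004399, minus strand): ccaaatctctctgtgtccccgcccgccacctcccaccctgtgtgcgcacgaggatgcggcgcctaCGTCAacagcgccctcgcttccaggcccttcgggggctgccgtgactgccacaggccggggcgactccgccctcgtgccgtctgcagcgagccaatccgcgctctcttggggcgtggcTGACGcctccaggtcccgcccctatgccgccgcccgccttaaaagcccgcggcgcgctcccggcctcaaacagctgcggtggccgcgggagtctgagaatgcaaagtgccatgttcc
Rgs16 (chr1:153740103-153740402, plus strand): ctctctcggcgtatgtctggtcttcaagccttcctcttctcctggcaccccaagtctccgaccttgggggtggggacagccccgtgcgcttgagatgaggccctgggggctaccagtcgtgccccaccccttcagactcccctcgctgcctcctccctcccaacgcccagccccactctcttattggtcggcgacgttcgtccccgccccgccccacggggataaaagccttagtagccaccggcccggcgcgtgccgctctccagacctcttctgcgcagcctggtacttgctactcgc
Rgs10 (chr7:128418123-128418422, minus strand): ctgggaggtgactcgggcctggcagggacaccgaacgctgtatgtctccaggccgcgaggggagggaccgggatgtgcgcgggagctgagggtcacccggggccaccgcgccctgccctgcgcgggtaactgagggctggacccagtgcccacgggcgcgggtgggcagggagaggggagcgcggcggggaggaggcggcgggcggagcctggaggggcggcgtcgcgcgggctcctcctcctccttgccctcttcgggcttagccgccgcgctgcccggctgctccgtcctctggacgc
The Rgs2 promoter held 2 such matches on opposite strands, beginning 185 and 67 bases before the start site, and those of Rgs16 and Rgs10 held 0. At least 1 match was present in 20.8% of 32851 RefSeq promoter windows of the same length, and at least 2 in 5.01%. The E-box CANNTG, the letters that basic helix-loop-helix factors bind, occurred 1 time in the Rgs2 window and 0 times in the windows of Rgs16 and Rgs10, against at least 1 match in 72.3% of all windows. GGAAA, the core that NFAT factors bind, and the AP-1 letters TGANTCA occurred 0 times in all 3 windows, against 61.3% and 7.81% of all windows with a match. Rgs3 and Rgs19, which lay near WT, had 2 and 3 RefSeq windows with 0 to 2 E-boxes and 0 to 2 GGAAA matches each, and no TGACG or TGANTCA. Both strands were searched. A match is only a description of the letters.

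Rgs10 and Rgs14 belong to another subfamily. Rgs10, one of the smallest RGS proteins, was at 58.5 and 39.2 FPKM under the MSC KO label, against 61.7 and 66.3 FPKM in WT. The groups did not overlap, but MSC KO 1 lay 0.08 and MSC KO 2 lay 0.74 below its WT partner on the log2(FPKM + 1) scale. The difference was -0.41 ± 0.2 (95% interval -1.02 to 0.2; adjusted p = 0.356, limma), and it was -0.13 without MSC KO 2 and -0.69 without MSC KO 1. Rgs10 is on chromosome 7 (mm9, 135517138 to 135561686). Rgs14, which also carries a GoLoco motif that holds Gi alpha subunits in the GDP form, was at 10.5 and 9.31 FPKM under the MSC KO label, against 10.5 and 9.93 FPKM in WT. The groups overlapped (-0.05 ± 0.09, 95% interval -0.32 to 0.23, adjusted p = 0.805, limma).

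Rgs19, also known as GAIP, was at 60.4 and 52.1 FPKM under the MSC KO label, against 63.3 FPKM in each WT library. Both MSC KO-labelled values were lower, by a small step (-0.17 ± 0.11 on the log2(FPKM + 1) scale, 95% interval -0.49 to 0.14, adjusted p = 0.432, limma). Its family is known for a string of cysteines that attaches the protein to membranes.

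Rgs11 is the member of the family whose proteins need the atypical beta subunit Gnb5 as a partner to be stable. It was at 4.99 and 11.5 FPKM under the MSC KO label, against 3.05 and 3.58 FPKM in WT, the lowest WT level of the 8. Both MSC KO-labelled libraries were above both WT libraries, at 1.64 and 3.23 times WT, and the second stood well above the first. The difference was 1.01 ± 0.26 on the log2(FPKM + 1) scale (95% interval 0.22 to 1.8; adjusted p = 0.199, limma). In the authors' deposited tables Rgs11 was not called (q = 0.999 in the first and q = 0.161 in the second). Rgs11 is on chromosome 17 (mm9, 26339906 to 26348269). Gnb5 was at 11.8 and 11.6 FPKM under the MSC KO label, against 6.56 and 6.17 FPKM in WT (0.79 ± 0.09, adjusted p = 0.123, limma). Rgs9, of the same family as Rgs11, was at 2.98 and 2.42 FPKM, set against WT values of 1.25 and 1.57 FPKM (0.62 ± 0.18, adjusted p = 0.218, limma). So Rgs11, Rgs9 and Gnb5 each had both MSC KO-labelled libraries above both WT libraries, as had 26.6% of all genes tested. Their membrane anchors Rgs7bp and Rgs9bp stayed at or under 0.137 FPKM in every library.

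**Figure D2:**
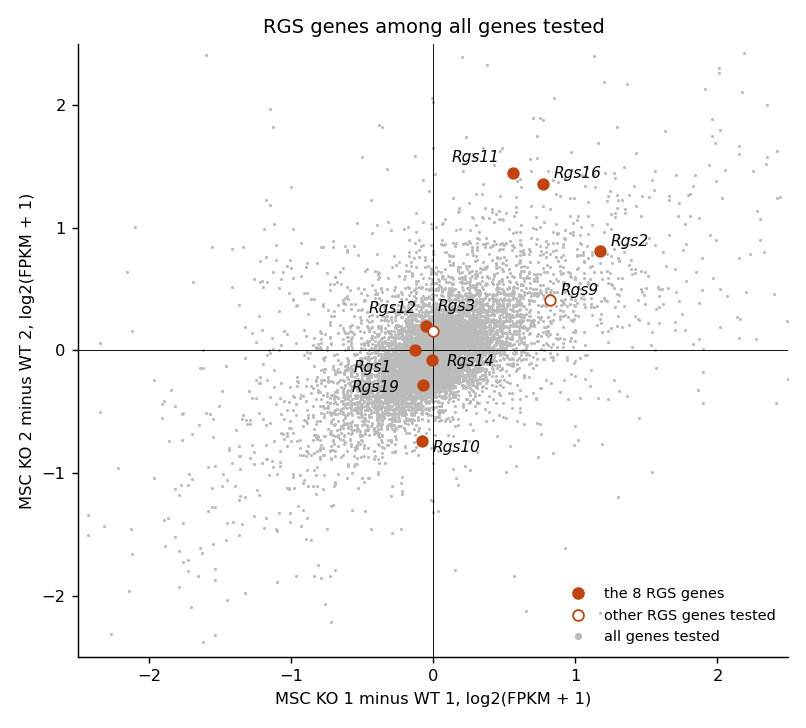
Difference of MSC KO 1 from WT 1 (horizontal) and of MSC KO 2 from WT 2 (vertical) on the log2(FPKM + 1) scale, for 10435 genes tested (grey; 168 lie outside the plotted range of 2.5). The 8 RGS genes are filled and the other tested RGS genes open, and Rgs2, Rgs11 and Rgs16 lie in the upper right, apart from the other 5.

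Over the 8 genes, 3 were higher and 4 lower than WT in both tables and 1 differed in sign. Of all genes tested, 31.2% were higher and 37.5% lower in both. The 3 higher members were at least 0.5 above WT on the log2(FPKM + 1) scale in both tables, as were 4.02% of all genes, and 0 members were as far below in both (3.37% of all genes). None was at least 2-fold higher or lower on that scale in both tables (1.32% and 0.811% of all genes). By library, 3 members had both MSC KO-labelled values above both WT values (26.6% of all genes) and 2 had both below (32.5%). The median difference of the 8 was 0.01, beside -0.02 for all genes tested. With 1 residual degree of freedom in the limma fit, these differences had little support from the spread between tables. Without MSC KO 1, Rgs2, Rgs10, Rgs11, Rgs16 and Rgs19 passed (adjusted p = 0.0259, 0.025, 0.0211, 0.0113 and 0.0378, limma), and without MSC KO 2, Rgs2 and Rgs16 did (0.0152 and 0.0123). Those fits take their spread from the WT libraries alone and passed 21.7% and 25.2% of all genes.

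**Figure D3:**
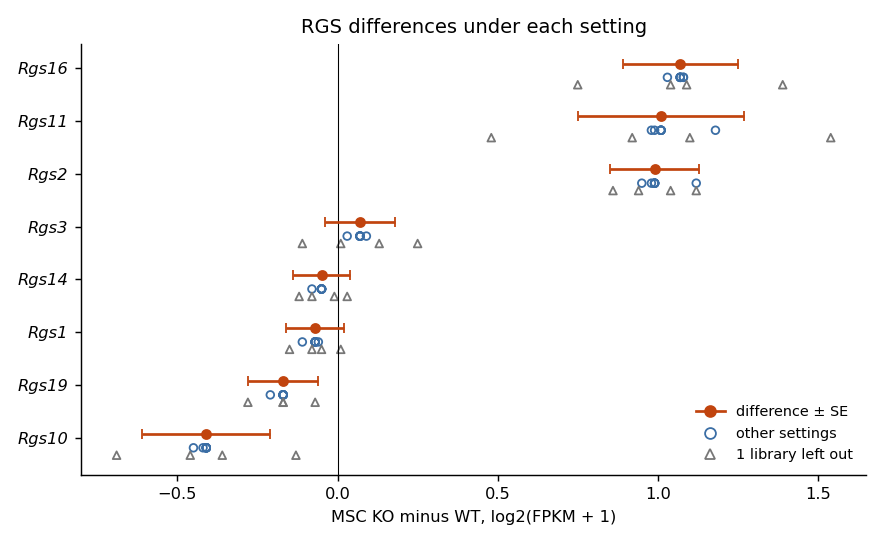
Difference of MSC KO from WT on the log2(FPKM + 1) scale (horizontal) for each of the 8 RGS genes. Filled points with bars are the difference and its SE, open circles the other settings and triangles the fits without 1 library. Rgs16, Rgs11 and Rgs2 are above 0 in every one of these fits, and Rgs3, Rgs14 and Rgs1 lie around 0.

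The 8 genes made up nearly all RGS transcript. FPKM is per length, so levels can be summed over genes, and 20 RGS genes summed to 476 and 525 FPKM under the MSC KO label, against 465 and 478 FPKM in WT. The 8 held 98.3% and 98.2% of that sum in the MSC KO-labelled libraries, against 98.7% in each WT library. Rgs1 alone was 49.7% and 50.3% in the MSC KO-labelled libraries, against 55.9% and 55.4% in WT. Rgs16 was 15.1% and 21.4% in the MSC KO-labelled libraries, against 8.97% and 9% in WT. Rgs1 was thus 3.29 and 2.36 times the level of Rgs16 in the MSC KO-labelled libraries, against 6.22 and 6.15 times in WT.

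**Figure D4:**
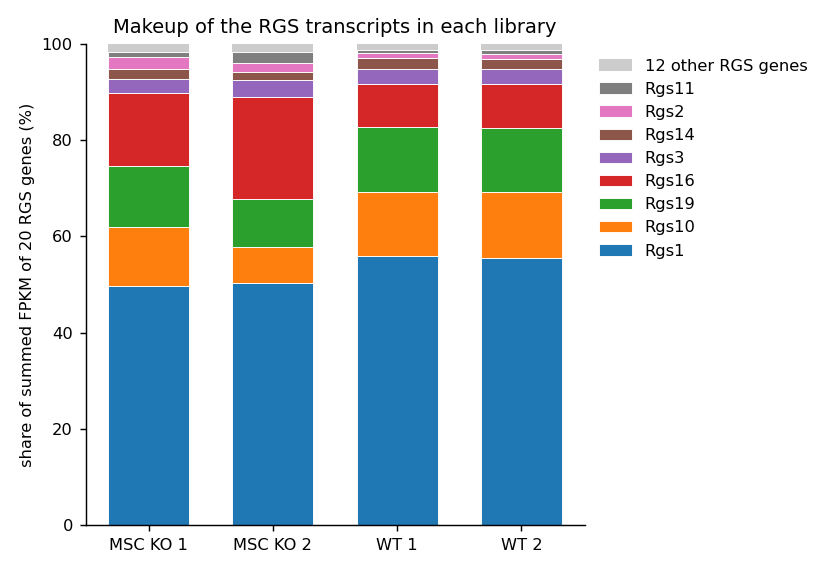
Share of the summed FPKM of 20 RGS genes (vertical, in %) taken by each gene in the MSC KO-labelled and WT libraries. Rgs1 is the largest share in all 4 bars, and that of Rgs16 (red) is 15.1% and 21.4% in the MSC KO-labelled bars, against 8.97% and 9% in WT.

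The order of levels among the 8 differed between the groups. In the MSC KO-labelled libraries, Rgs1 (250.5 ± 19.8 FPKM, SD, n = 2) was followed by Rgs16 (92 ± 28.6 FPKM), Rgs19 (56.2 ± 5.86 FPKM) and Rgs10 (48.8 ± 13.6 FPKM). Then came Rgs3, Rgs2, Rgs14 and Rgs11, the last 3 of which overlapped with their neighbours in that order, as did Rgs19 with Rgs10. In WT, Rgs1 (262 ± 3.69 FPKM, SD, n = 2) was followed by Rgs10 (64 ± 3.22 FPKM), Rgs19 (63.3 ± 0.0126 FPKM) and Rgs16 (42.4 ± 0.939 FPKM), and after them by Rgs3, Rgs14, Rgs2 and Rgs11. There only Rgs10 and Rgs19 overlapped. Rgs16 therefore ranked 2 under the MSC KO label and 4 in WT.

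Among the other 12 RGS genes found, Rgs8, Rgs9 and Rgs12 reached 1 FPKM in some library, and the other 9 stayed at or under 0.294 FPKM in every library. Rgs8, a relative of Rgs16, was at 0.589 and 1.47 FPKM under the MSC KO label, against 0.155 and 0.137 FPKM in WT. It stayed under the filter of a mean of 1 FPKM and was not tested. The authors' deposited tables did not call it (q = 0.999 in the first and q = 0.181 in the second). Rgs12, of the same subfamily as Rgs10 and Rgs14, was at 4.09 and 4.84 FPKM under the MSC KO label, against 4.1 and 4.23 FPKM in WT.

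Position sets some of these genes side by side. Of the 8, 3 are on chromosome 1. Rgs2 and Rgs1 stand in 1 cluster with Rgs13 between them, at gaps of 135 and 67.3 kb and with no other symbol between. Within it Rgs2 was above WT in both tables, Rgs1 was not, and Rgs13 was listed at 0 except in MSC KO 2 (0.136 FPKM). Rgs16 lies 42.7 kb from Rgs8 with no symbol between, and both were above WT in both tables. Of the 5 other genes tested within 500 kb of Rgs16, 2 were higher in both tables, 1 of them by at least 0.5 on the log2(FPKM + 1) scale. Around Rgs2 these counts were 2 and 0 of 4 genes. Msc is on the same chromosome, 131 Mb from Rgs2 and 141 Mb from Rgs16. No row of the deposited tables overlapped the locus of any of the 8.

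Transcripts of G protein subunits, of which RGS proteins act on the alpha subunit, were mostly near or below WT. Of all genes tested, 31.2% were higher and 37.5% lower in both tables, the shares to set beside each such count from here on. Among 8 tested G alpha genes, 2 were higher and 6 lower in both tables, with a median of -0.17. Gnai2, the main Gi alpha subunit of lymphocytes, was at 362 and 336 FPKM under the MSC KO label, against 447 and 450.2 FPKM in WT (-0.36 ± 0.09, adjusted p = 0.188, limma). Gna12 was at 11.6 and 11 FPKM, set against WT values of 19.5 and 18.5 FPKM (-0.7 ± 0.09, adjusted p = 0.13, limma). Gna11, a substrate class of Rgs2, was at 4.49 and 4.44 FPKM, set against WT values of 5.25 and 5.07 FPKM, while Gna15, of the same Gq class, was at 5.81 and 3.74 FPKM, set against WT values of 3.4 and 3.2 FPKM. Of 8 tested beta and gamma genes, 2 were higher and 6 lower in both tables (median -0.26). The gamma subunit gene Gng2 was at 24 and 27 FPKM under the MSC KO label, against 57.8 and 62.3 FPKM in WT (-1.21 ± 0.09, adjusted p = 0.114, limma). Gnb2 was at 281 and 303 FPKM, set against 378 and 382 FPKM, and Gng12 at 8.13 and 6.73 FPKM against 10 and 11 FPKM, while Gngt2 was at 79.3 and 67.5 FPKM against 50.7 and 48 FPKM.

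Receptors stood on the other side. Of 12 tested Gi-coupled receptors, 7 were higher and 1 lower in both tables (median 0.37), beside 31.2% and 37.5% of all genes. Of 5 tested Gs-coupled receptors, 4 were higher and 0 lower (median 0.85). Again 0 passed by limma, and an unadjusted p under 0.05 was reached by 7 of the Gi-coupled receptors (6 higher and 1 lower) and 4 of the Gs-coupled ones (all higher), beside 9.2% of all genes on the higher side and 11.2% on the lower. Gpr15, a homing receptor of the colon, was at 31.5 and 33 FPKM under the MSC KO label, against 7.33 and 8.15 FPKM in WT (1.93 ± 0.09, adjusted p = 0.0992, limma). Gpr15 passed with small RNA symbols left out of the fit (adjusted p = 0.0419, limma), where 26 of 10457 genes passed. With no block, Gpr15, Ccr4, Gpr65 and Adora2a passed (adjusted p = 0.0256, 0.0373, 0.0333 and 0.0451, limma), as did 1.44% of all genes. Outside the receptors, Gnb5 and Arrb1 on the higher side also passed in that fit (adjusted p = 0.0448 and 0.0373, limma). So did Gng2 and Rasgrp2 on the lower side (adjusted p = 0.0373 for each, limma). Ccr4 was at 41.7 and 42.9 FPKM, set against WT values of 19.9 and 21.8 FPKM, and Cxcr5, the receptor that leads cells to follicles, at 2.43 and 2.04 FPKM against 0.82 and 0.767 FPKM. Cxcr5 had a WT mean under 1 FPKM and passed the filter only through the MSC KO-labelled libraries, so its place in these counts carries no support. Among the Gi-coupled receptors, Ccr6, Gpr18, S1pr1 and S1pr4 had opposite signs in the 2 tables, as had Ptger4 among the Gs-coupled ones. Cxcr4, the receptor of CXCL12, was lower in both, at 16 and 13.2 FPKM, set against WT values of 29.1 and 27.9 FPKM (-0.93 ± 0.1, adjusted p = 0.121, limma). Among receptors that act through Gs and raise cAMP, the acid sensor Gpr65 was at 39.2 and 42 FPKM under the MSC KO label, against 16.2 and 17 FPKM in WT. The adenosine receptor genes Adora2a (14.2 and 17 FPKM against 6.62 and 6.61 FPKM) and Adora2b (19.1 and 10.2 FPKM against 7.13 and 7.43 FPKM), and the prostaglandin receptor gene Ptger2 (8.7 and 7.31 FPKM against 4.34 and 3.9 FPKM), lay the same way.

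Other regulators of the same signals were divided. Of 5 tested receptor kinases and arrestins, 1 was higher and 2 lower in both tables (median -0.06). Arrb1, a beta-arrestin, was at 16.6 and 17.2 FPKM under the MSC KO label, against 8.24 and 8.68 FPKM in WT (0.92 ± 0.09, adjusted p = 0.12, limma). Its sister Arrb2 was at 61.5 and 55 FPKM, set against 70.8 and 70.6 FPKM, and Adrbk1, the receptor kinase also called GRK2, at 112 and 147 FPKM against 155 and 161 FPKM. Of 8 proteins with an RGS-homology domain, 3 were higher and 4 lower (median -0.08), among them Arhgef1, which proteins of the Gna12 class regulate, at 107 and 93.9 FPKM against 129 and 131 FPKM. Akap10 (6.32 and 6.59 FPKM against 7.55 and 8.26 FPKM) and Snx13 (3.49 and 3.35 FPKM against 4.59 and 4.44 FPKM) were also on the lower side, and Arhgef12 (2.11 and 1.56 FPKM against 1.16 and 1.45 FPKM) on the higher. Of 5 G alpha chaperones and GoLoco proteins, 2 were higher and 1 lower (median 0.14): Gpsm1 was at 4.87 and 5.99 FPKM against 3.91 and 3.83 FPKM, Gpsm2 at 17.3 and 14.4 FPKM against 14.4 and 14 FPKM, and Ric8b at 2.82 and 3.68 FPKM against 3.38 and 4.1 FPKM.

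Downstream, 8 adenylyl cyclase and cAMP effector genes had a median of -0.04 (3 higher and 4 lower in both tables). Adcy6 was at 6.78 and 8.35 FPKM under the MSC KO label, against 5.91 and 5.94 FPKM in WT, and the kinase gene Prkacb at 24.8 and 26.3 FPKM against 32.1 and 32.5 FPKM. Prkar1a was at 166 and 146 FPKM, set against 178 and 177 FPKM, and Prkar2a, another regulatory subunit of protein kinase A, at 13 and 13.1 FPKM against 10.8 and 11.7 FPKM. Of 9 phosphodiesterases, which degrade cyclic nucleotides, 4 were higher and 2 lower (median 0.06), and Pde4b was the farthest from WT, at 14.1 and 11.7 FPKM against 6.55 and 7.53 FPKM (0.79 ± 0.14, adjusted p = 0.152, limma). Pde7a was at 31.9 and 43 FPKM against 28.6 and 30.1 FPKM, Pde4d at 9.62 and 10.8 FPKM against 12.1 and 12.1 FPKM, and Pde3b at 9.07 and 9.11 FPKM against 8.76 and 8.55 FPKM. Of 11 beta-gamma and Gq effectors, 5 were higher and 5 lower (median -0.07). Pik3r6, a regulatory subunit that couples phosphoinositide 3-kinase gamma to beta-gamma, was at 2.55 and 2.68 FPKM, set against WT values of 0.447 and 0.527 FPKM, whereas the catalytic subunit gene Pik3cg was at 6.54 and 10.5 FPKM against 12.2 and 13.6 FPKM. Pik3r6 had a WT mean under 1 FPKM and was tested only because it was high under the MSC KO label. No test of it is therefore given, and its place in these counts carries no support. Rasgrp2, the exchange factor that activates Rap1 for integrin adhesion, was at 2.97 and 2.91 FPKM, set against WT values of 7.06 and 7.53 FPKM (-1.07 ± 0.11, adjusted p = 0.12, limma), and Rap1b at 294 and 213 FPKM against 168 and 161 FPKM.

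**Figure D5:**
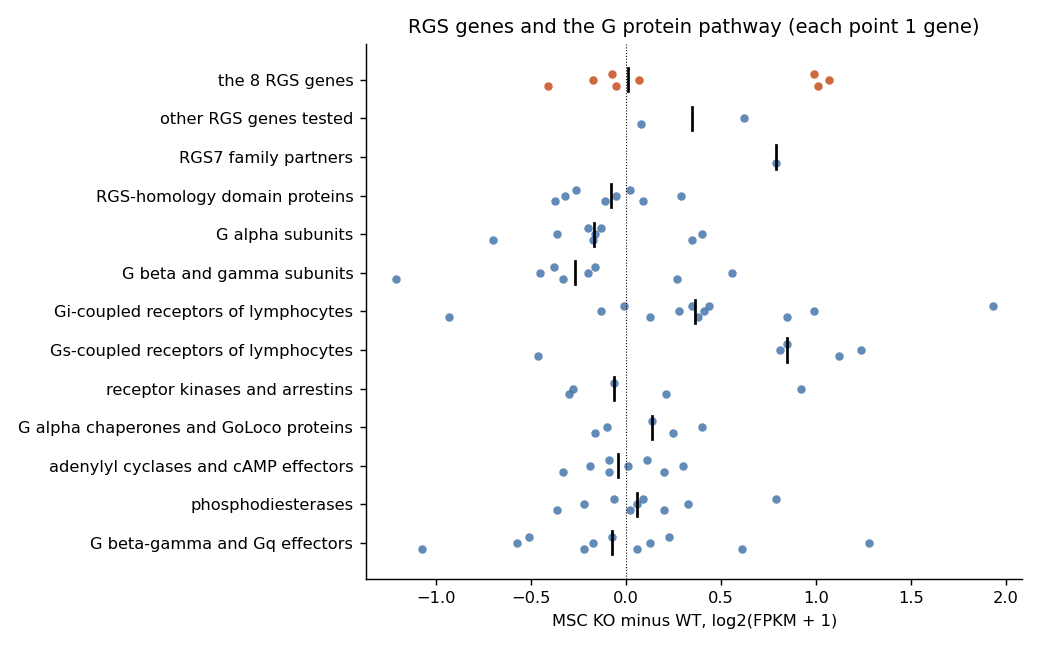
Difference of MSC KO from WT on the log2(FPKM + 1) scale (horizontal) for each tested gene of the 8 RGS genes and of 12 lists of the G protein pathway, with a black bar at each list's median. The 8 RGS genes fall into 3 near 1 and 5 from -0.41 to 0.07, while 4 of the 5 Gs-coupled receptors lie above 0.8.

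Across the 4 libraries, the tested genes whose centred log2(FPKM + 1) values lay nearest to those of Rgs2 were Mlkl, Cldnd1 and Rcn3, at Euclidean distances of 0.043, 0.085 and 0.086. Mlkl, the effector of necroptosis, was at 12.3 and 10 FPKM under the MSC KO label, against 4.7 and 5.38 FPKM in WT. Nearest to Rgs10 were Haus4, Gbp9 and Herc3, at 0.057, 0.061 and 0.071. Haus4, a subunit of the augmin complex of the spindle, was at 38.2 and 26 FPKM under the MSC KO label, against 39.6 and 42 FPKM in WT. With 4 libraries such likeness is common and is given as a description.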

How the data were processed

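RNA of induced regulatory T cells was sequenced in 4 libraries. Reads were aligned to mm9 with TopHat, per the submitters' processing notes. The sources used here name neither the program that made the tables nor its annotation. The authors deposited 2 tables, each with 1 MSC KO and 1 WT library, with values read as FPKM from the layout, and with a p-value and a q-value from the authors' own test. Whether both tables were normalized together is not stated, so differences were taken within a table.

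The tables held 24366 and 24752 rows. Those with no gene symbol (1925 and 2325) were left out, and a repeated symbol was represented by its row of highest mean. Values were taken as log2(FPKM + 1) for genes with a mean of at least 1 FPKM over 4 libraries. MSC KO was compared with WT in limma 3.58.1 (R 4.3.3), blocked by table, with a trended prior (2.36 prior and 1 residual degrees of freedom). Tests were two-sided, and p-values were adjusted by Benjamini-Hochberg across every tested gene, with a threshold of 0.05. A 2-fold step is 1 on this scale, and the scale understates changes of low genes. Depth was estimated from the smallest step of low values in genes with 1 transcript of over 2500 bp (GENCODE M21 lengths, matched by name). Python 3.11.15 and pandas 2.3.3 handled the tables.

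The RGS genes and all lists were chosen with earlier results of these data known. Named were the 8 members, other RGS genes of at least 1 FPKM in a library, Msc, Foxp3, up to 4 tested genes per list with the largest shared difference, and the 3 genes nearest to the members whose smaller difference of the 2 tables was largest upward and downward (Rgs2 and Rgs10). Marker lists of CD4 T, induced Treg, B, myeloid, mast, CD8 or NK and erythroid cells served as checks of cell type. Alternatives were no block, a pseudocount of 0.1, no filter, libraries rescaled to the same sum, quantile normalization, no prior trend, repeated symbols summed, small RNA symbols left out, and each library left out in turn (with no block).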

Additional observations from a re-analysis of the deposited data

How the results depend on the processing

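Over 12 alternatives, each of Rgs2, Rgs11 and Rgs16 kept its direction, with differences of 0.86 to 1.12, 0.48 to 1.54 and 0.75 to 1.39 on the log2(FPKM + 1) scale. Rgs10 (-0.69 to -0.13) and Rgs19 (-0.28 to -0.07) kept theirs too. Without MSC KO replicate 1 and without MSC KO replicate 2, the sign differed for Rgs1 (0.01 and -0.15), Rgs3 (0.25 and -0.11), Rgs14 (-0.12 and 0.03) and Rgs12 (0.18 and -0.02). With all 4 libraries 0 of the 8 members passed under any alternative. Leaving out 1 library gave 0 to 5 passing members, 0 to 37 passing genes of the pathway lists and 0 to 2672 passing genes in all. With no replicate block, 153 genes passed, 9 of them in the pathway lists, and 0 members did. Those 9 include Pik3r6, which passed the filter only through the MSC KO-labelled libraries, so its place among them carries no support. The replicate numbers are known to pair libraries by table, and the labels give no other pairing. WT 1 minus WT 2 and MSC KO 1 minus MSC KO 2 had a correlation of 0.06 across genes. As the WT libraries lay close together, this value cannot tell whether the libraries were paired in another way. Genes passing numbered 26 with small RNA symbols left out (1 in the pathway lists), 7 with libraries rescaled to the same sum, and 0 with no filter, with quantile normalization and with no prior trend. The alternatives for the pathway lists were chosen after seeing the data. The cause of these changes was not tested. The median difference of the 8 (0.01) was -0.03 with libraries rescaled to the same sum, and 226 genes 2-fold apart in both tables became 327 with a pseudocount of 0.1. With either WT library left out 0 members passed.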

Other observations

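Some genes of the same signals, and Kit from the mast cell marker list, differed more between the 2 MSC KO-labelled libraries than between the 2 WT libraries. They were chosen after their values were seen. Ccr6, the receptor of the chemokine CCL20, was at 10.4 and 111 FPKM under the MSC KO label, against 24.4 and 27.7 FPKM in WT. Adcy5, an adenylyl cyclase, was at 0.983 and 4.78 FPKM, set against WT values of 2.05 and 2.21 FPKM. The receptor tyrosine kinase gene Kit was at 2.47 and 14.9 FPKM, set against WT values of 10.2 and 9.81 FPKM. In MSC KO 1 alone, Ptger4, a prostaglandin receptor that raises cAMP, was lower (17.3 and 37.4 FPKM under the MSC KO label, against 34.9 and 35.9 FPKM in WT), and Gpr18 was higher (24.1 and 12.1 FPKM against 11.6 and 13 FPKM).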
